A study of Mus musculus with 66 samples.

Results

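RNA of 6 Notch pathway genes chosen by name was followed through exit from mitosis in mouse embryonic stem cells. Signalling itself was not measured. The genes were the ligands Dll1 and Jag1, the receptors Notch1 and Notch2, the DNA-binding effector Rbpj and the target gene Hes1. All 6 are among the 13957 genes of the expression table, and all 6 reached at least 1 TPM (an RNA measure that allows for gene length and library total) in at least 1 group. The RNA came from an E14Tg2a derivative, genotype 129/Ola, in which adding auxin removes 2 nuclear receptors at once, Esrrb and Nr5a2. Without and with auxin, cells were sampled while asynchronous, while arrested in mitosis, and after release from the arrest, at 20, 30, 40, 50 and 60 minutes and again at 90 and at 120 minutes, in 18 groups of 3 libraries. All groups carry the degradable receptors, and none received auxin without them, so the share of either receptor, or of auxin alone, in a difference cannot be told apart. Whether the derivative is 1 clone is not given in the sources used here. Nr5a2 binding was mapped by ChIP-seq in wild-type E14Tg2a cells, in interphase and in mitosis, each with input, and is available as 1 list of 35266 peaks.

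Notch signalling passes between neighbouring cells. A Delta-like or Jagged ligand on the sending cell binds a Notch receptor, proteases then free the receptor's intracellular part, and this part joins Rbpj on DNA to switch on targets such as Hes1, a transcriptional repressor. In embryonic stem cells the pathway is known for promoting exit from self-renewal towards neural fates, and Hes1 for levels that vary in time because its protein represses its own gene.

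The authors' table holds 1 mean of 3 libraries for each group. Replicate errors and tests are therefore lacking throughout, and neighbouring levels in an ordered course cannot be ranked beyond their spread. Differences between arms are given on the log2(TPM + 1) scale as with auxin minus without, which understates the change of low genes, and each is set beside the 8999 genes of at least 1 TPM. The listed genes summed to 17155 to 49059 TPM per column, and the depth per library is unknown. Which part of a gene was counted is not stated, so a level here need not be that of the gene's mature RNA. Of 6 stem cell markers 5 have values here, with a summed level of 26.5 to 90.3 TPM, against 1.28 to 8.16 TPM for 3 of 6 neural progenitor markers, 0.416 to 2.99 TPM for 4 of 4 mesoderm markers and at most 0.527 TPM for primitive endoderm (3 of 4), trophectoderm (1 of 3) and fibroblast (2 of 5) markers. The neural markers Pax6 and Nes and the mesoderm markers Tbx6 and Eomes reached 1 TPM, and no listed marker was at 0 in every group. RNA of the degraded receptors averaged 4.01 TPM without and 3.65 TPM with auxin after release for Esrrb, and 3.92 and 3.58 TPM for Nr5a2, which does not measure the proteins. In these bulk samples, fewer cells with an RNA and less of it per cell cannot be told apart.

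The 6 loci differed in how many Nr5a2 peaks they held. Dll1 lies on chromosome 17 (chr17:15367354-15376932, mm10) and had no peak in the gene or within 10 kb of it, and its nearest peak lay 28.9 kb away. Notch2 (chr3:98013538-98150367) also had none within 10 kb, and its nearest peak was 48.0 kb away. Of all genes with a position, 70.5% had at least 1 peak within 10 kb. The other 4 genes were among them: Jag1 (chr2:137081451-137116520) with 3 peaks, Notch1 (chr2:26457902-26503822) with 6, and Rbpj (chr5:53555779-53657445) and Hes1 (chr16:30065357-30067796) with 5 each. At least 3 peaks were found for 26% of all genes, and at least 5 for 9.86%.

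The authors gave each peak a class code, L, eB, dB or nB, which the sources used here do not define. Code L holds 65.1% of all peaks, eB 18.1%, dB 10.3% and nB 6.46%. Hes1 had 2 L, 2 eB and 1 dB peak within 10 kb, and an eB peak (chr16:30065803-30067051) covered much of this short gene. The dB peak (chr16:30062230-30063342) had its midpoint at -2.57 kb from the gene's lower coordinate. Within 100 kb the Hes1 count was 18, against 3 for Dll1 and 1 for Notch2, so peaks were spread along the whole region around Hes1. By midpoint, with negative distances before the start, Jag1 had an eB peak at -1.22 kb (chr2:137117577-137117907), a dB peak at 0.777 kb (chr2:137115302-137116185) and an L peak at 17.8 kb. At Notch1 4 of the 6 peaks were L, including an L peak at -0.491 kb (chr2:26503947-26504680), while an eB peak lay at 1.85 kb and an nB peak at 45.0 kb, near the gene's far end. Notch1 overlaps 0610009E02Rik and Mir6996, and Notch2 overlaps Gm40103, and since strand-specific counting is not stated, reads of these pairs cannot be told apart. Rbpj had 4 L peaks and 1 nB peak, and beyond 10 kb a dB peak lay 10.6 kb from the gene and eB peaks lay 12.6 kb from it on the same side and 13.9 kb from it on the other. The 2 Rbpj starts in the RefSeq promoter table lie 34.6 and 34.7 kb inside the gene's span, so the L peak across the first base of the span (chr5:53555513-53556034) is not at those starts.

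**Figure D1:**
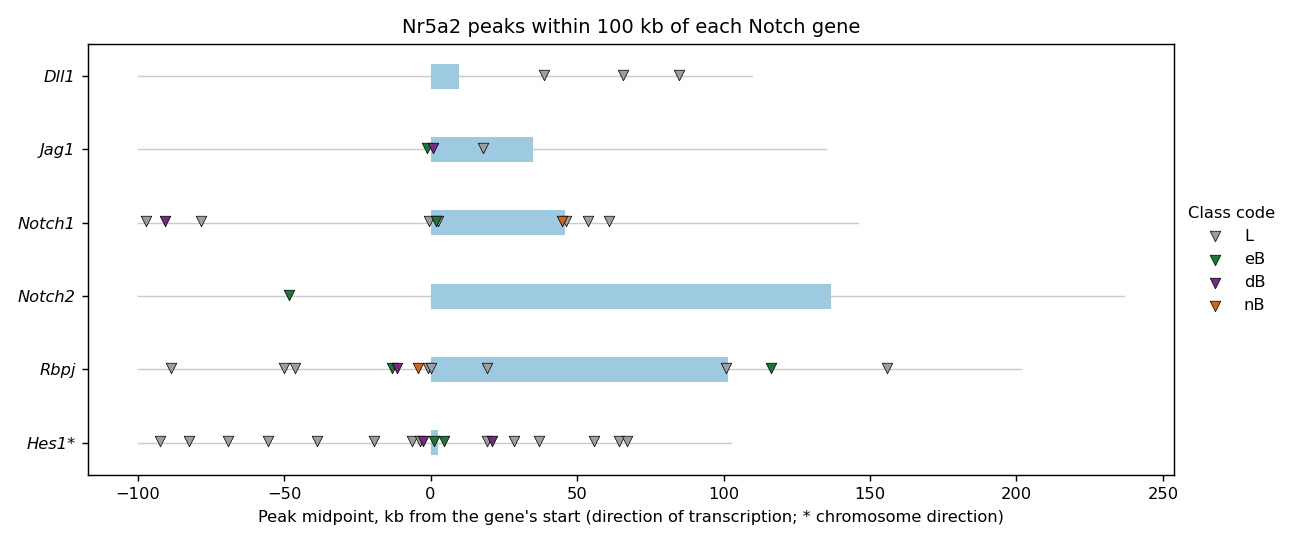
Nr5a2 peaks (triangles, coloured by the authors' class code) along each Notch gene (blue bar, RefSeq span) and 100 kb on either side; the horizontal axis is the peak midpoint in kb from the gene's start, in the direction of transcription except for Hes1, whose strand the tables used here do not give. Hes1 has 18 peaks in its window, Rbpj 12 and Notch1 10, and Dll1 and Jag1 3 each and Notch2 1.

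The 250 bases before the start of 3 of these genes show how near the peaks come, from RefSeq on GRCm38.p6, each 5′ to 3′ on the minus strand. Notch1 is shown because the L peak reaches into its promoter: capitals mark the 126 bases under the peak (chr2:26503823-26504072). Jag1 (chr2:137116521-137116770) and Dll1 (chr17:15376933-15377182) are shown as the ligands with higher RNA under auxin, and no peak covers either window: capitals mark CpG dinucleotides. The Dll1 window is that of the outer of its 2 starts, the other lying 1.11 kb inside the gene.
Notch1: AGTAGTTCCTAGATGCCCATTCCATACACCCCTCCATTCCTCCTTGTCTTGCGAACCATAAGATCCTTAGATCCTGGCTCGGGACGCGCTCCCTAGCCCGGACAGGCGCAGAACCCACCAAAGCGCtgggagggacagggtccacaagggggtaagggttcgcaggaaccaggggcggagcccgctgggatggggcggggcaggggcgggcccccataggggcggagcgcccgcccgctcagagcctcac
Jag1: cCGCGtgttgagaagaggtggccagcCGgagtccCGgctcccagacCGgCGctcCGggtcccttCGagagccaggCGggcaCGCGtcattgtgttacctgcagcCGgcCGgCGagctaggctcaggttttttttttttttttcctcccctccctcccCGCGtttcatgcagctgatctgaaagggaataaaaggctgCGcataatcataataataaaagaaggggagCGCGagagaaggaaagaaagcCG
Dll1: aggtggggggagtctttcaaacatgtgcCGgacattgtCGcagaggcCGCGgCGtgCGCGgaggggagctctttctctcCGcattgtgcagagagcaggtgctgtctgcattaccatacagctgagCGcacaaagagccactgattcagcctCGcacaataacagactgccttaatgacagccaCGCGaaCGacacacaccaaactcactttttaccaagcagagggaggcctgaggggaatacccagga
All 3 held more CpG than the median of 6 over 32851 RefSeq promoters, with 16 in Notch1, 20 in Jag1 and 13 in Dll1. These counts stood at percentiles 74.6, 82.1 and 68.5 of all promoters. The window of the other Dll1 start had 21, and Notch2 had 34. Promoters were found for 5 of the 6 genes, in 7 windows, with none for Hes1. On either strand, none of the 7 windows held AAGGTCA or AAGGCCA, the cores read by Esrrb and Nr5a2, GTGGGAA, the core read by Rbpj, or TATAAA. These letters occur in 4.08%, 5.24%, 5.42% and 12.4% of all promoter windows, respectively, and none of the motifs is part of another. The sequence of the peaks themselves was not used here.

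Without auxin, the ligand Dll1 was almost silent in mitosis and highest an hour after release. Its level was 0.191 TPM in mitosis, 0.285 at 20 minutes, 0.539 at 30, 2.44 at 40, 5.83 at 50, 6.34 at 60, 2.66 at 90 and 1.68 TPM at 120 minutes, and 0.121 TPM in asynchronous cells. The level at 60 minutes was 33.2 times the mitotic and 52.3 times the asynchronous level, and that at 120 minutes was still 13.9 times the asynchronous level. These ratios divide by very low levels. With auxin, where asynchronous cells held 0.311 TPM, the ratios to them were 22.2 at 60 and 6.73 at 120 minutes. Without auxin, the gap between 60 minutes and asynchronous cells on the log2(TPM + 1) scale, 2.71, was larger than in 99.78% of genes. Dll1 RNA was thus far above its asynchronous level at every time from 40 minutes on.

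Jag1, the other ligand, had a course of the same shape from a higher base. It stood at 0.591 TPM in mitosis, 0.853 at 20 minutes, 1.02 at 30, 2.40 at 40, 6.82 at 50, 9.66 at 60, 4.32 at 90 and 2.44 TPM at 120 minutes, and at 1.34 TPM in asynchronous cells. At 60 minutes it was the most abundant of the 6 genes, 16.3 times its mitotic and 7.24 times its asynchronous level. Hes1 followed both ligands closely, with 0.463 TPM in mitosis, 0.634 at 20 minutes, 0.931 at 30, 3.06 at 40, 6.26 at 50, 6.55 at 60, 4.16 at 90 and 2.45 TPM at 120 minutes, and 0.913 TPM in asynchronous cells. Its level at 60 minutes was 14.1 times the mitotic level. Across the 18 group means, which share the time course, Hes1 had r = 0.97 with Dll1 and 0.95 with Jag1, and the ligands had r = 0.96 with each other. Such values were common: r above 0.95 was reached by 711 genes for Hes1, 573 for Dll1 and 1162 for Jag1.

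The receptors and Rbpj had smaller folds over mitosis and stayed high for longer. Notch1 stood at 0.768 TPM in mitosis, 1.65 at 40 minutes, 5.02 at 60, 5.04 at 90 and 3.91 TPM at 120 minutes, and at 1.03 TPM in asynchronous cells, so the levels at 60 and 90 minutes were nearly equal. Notch2 had the lowest levels from 40 minutes on, with 0.557 TPM in mitosis, 0.589 at 40 minutes, 1.35 at 60, 1.38 at 90 and 1.15 TPM at 120 minutes, and 0.839 TPM in asynchronous cells. Rbpj differed from the rest in that its RNA was already abundant in mitosis, at 5.34 TPM, more than 6 times any other member's. It stood at 4.27 TPM at 30 minutes and 4.23 at 40, then at 8.11 at 60, 10.1 at 90 and 7.93 TPM at 120 minutes, and at 5.71 TPM in asynchronous cells. Its change from mitosis to 40 minutes, -0.28, was lower than in all but 2.81% of genes. RefSeq lists 3 Rbpj pseudogenes on other chromosomes, and how reads shared with them were counted is not stated, so Rbpj values are uncertain.

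**Figure D2:**
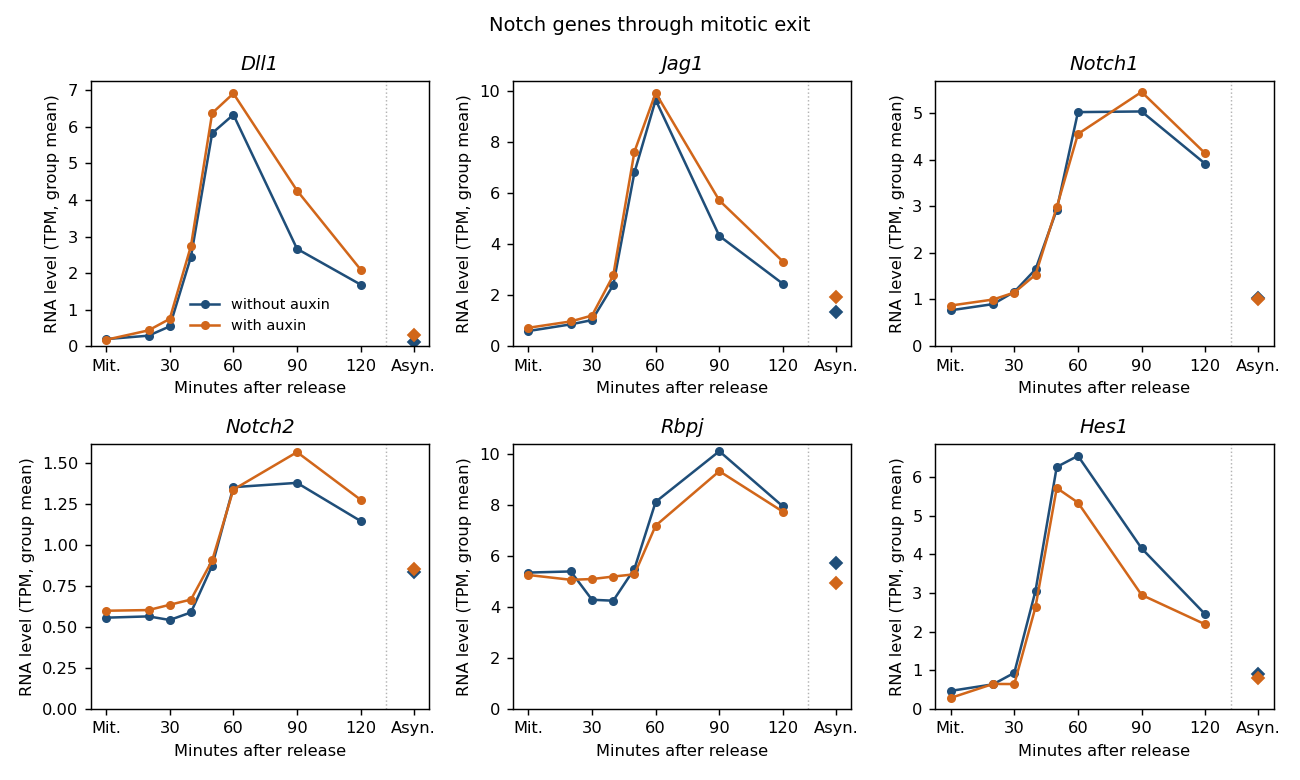
RNA level (TPM, the authors' mean of 3 libraries) against minutes after release for the 6 Notch genes without (blue) and with auxin (orange), with mitotic cells at the left and asynchronous cells as diamonds at the right; no error bars exist for these means. Dll1, Jag1 and Hes1 show a sharp maximum near 60 minutes, whereas Rbpj is highest at 90 minutes and Notch1 and Notch2 without auxin stand nearly level at 60 and 90 minutes.

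The listed time of the highest level can be set beside gene length, with limits. For Notch1 (5.02 and 5.04 TPM) and Notch2 (1.35 and 1.38 TPM) the levels at 60 and 90 minutes were nearly equal and cannot be ranked. Nor can those of Hes1 at 50 and 60 minutes (6.26 and 6.55 TPM). Hes1, Dll1 and Jag1 span 2.44, 9.58 and 35.1 kb and were highest at 60 minutes, as were 45.6% of genes. Notch1, Rbpj and Notch2 span 45.9, 102 and 137 kb and were highest at 90 minutes, as were 23.6% of genes. Over all genes of at least 1 TPM, the median span was 19.3 kb for those highest at 60 minutes and 30.7 kb for those highest at 90 minutes. Without auxin, the midpoint between the mitotic and the highest level was passed by 50 minutes in Hes1, Dll1 and Jag1 and by 60 minutes in Notch2 and Rbpj. Notch1 stood at 2.93 TPM at 50 minutes against a midpoint of 2.90 TPM, too near to place it. With auxin the midpoint was passed by 60 minutes in Notch1 and by 90 minutes in Rbpj, and at the same times as without in the others.

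The ligands and Hes1 rose early, and their maxima at 60 minutes were short-lived. At 40 minutes Dll1, Hes1 and Jag1 were at least 2-fold above mitosis on the log2(TPM + 1) scale, with differences of 1.53, 1.47 and 1.09, as were 5.73% of genes. By 60 minutes 4 of the 6 passed 2-fold, Notch1 among them, which is little above the 50.8% of all genes. At that time the same 4 were also at least 2-fold above asynchronous cells, as were 31.2% of genes. All 6 were lower at 120 than at 60 minutes, as were 63.3% of genes, but by very unequal amounts. At 120 minutes Jag1 kept 25.3% of its highest level, Dll1 26.6% and Hes1 37.3%, against 77.7% for Notch1, 78.5% for Rbpj and 83.1% for Notch2. The Jag1 and Dll1 differences from 60 to 120 minutes, -1.63 and -1.45, were lower than in all but 0.622% and 1.02% of genes. The median change of all genes from mitosis to 60 minutes was 1.01, and relative to it Notch2 (0.60) and Rbpj (0.52) lagged.

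**Figure D3:**
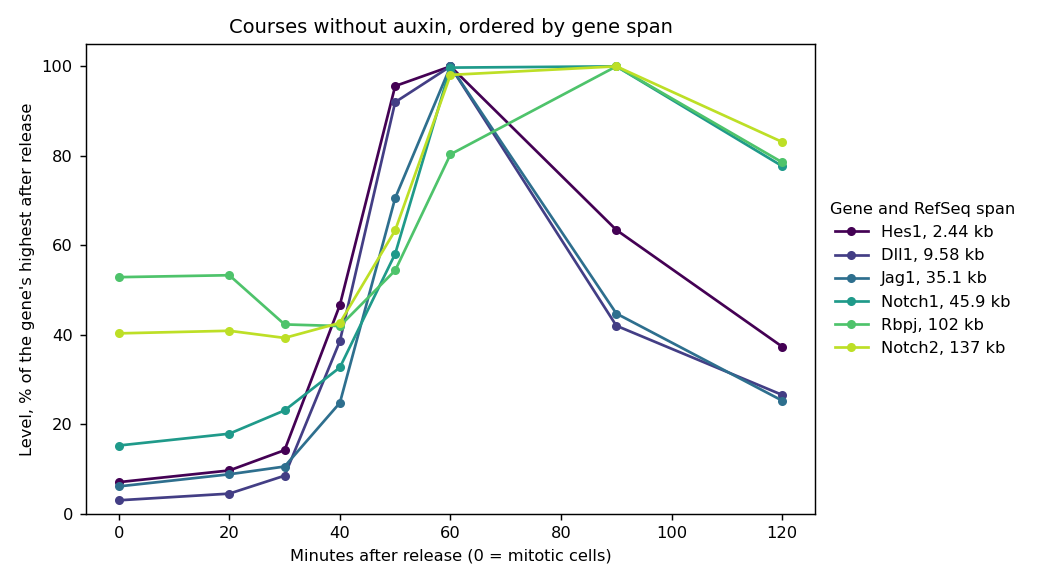
Level without auxin as a percentage of each gene's highest level after release, against minutes after release, with lines coloured by RefSeq span from Hes1 (2.44 kb) to Notch2 (137 kb). At 120 minutes Hes1, Dll1 and Jag1 stand between 25.3% and 37.3%, and Notch1, Rbpj and Notch2 between 77.7% and 83.1%. A link of this level with span was not tested.

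The next comparison asks how these genes differ when both receptors are degraded. Both ligands were higher with auxin, Hes1 was lower, and the receptors differed little on average. Dll1 and Jag1 are called higher, and Hes1 and Rbpj lower, in the authors' deposited table, which calls 6.74% of all genes higher and 7.26% lower. Notch1 and Notch2 are not called in the authors' deposited table. The calls rest on these same libraries, and the stages behind them are not stated.

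Dll1 was higher with auxin at 7 of 7 times after release, as were 3.88% of genes. With auxin it stood at 0.431 TPM at 20 minutes, 0.745 at 30, 2.74 at 40, 6.38 at 50, 6.92 at 60, 4.26 at 90 and 2.09 TPM at 120 minutes, against the values without auxin given above. The mean after release was 2.83 TPM without and 3.37 TPM with auxin, and the mean log2 difference of 0.20 was larger than in 99.76% of genes. At 40, 50 and 60 minutes the differences were 0.12, 0.11 and 0.11, above 63.4%, 93.1% and 96.2% of genes. The gap was widest at 90 minutes, where 2.66 TPM without auxin stood against 4.26 TPM with it (0.52, above 99.84% of genes). In mitosis the arms were alike, at 0.191 and 0.173 TPM. In asynchronous cells Dll1 was at 0.121 TPM without and 0.311 TPM with auxin, 2.57 times as much at a very low level.

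Jag1 was also higher with auxin at 7 of 7 times, and in mitotic and asynchronous cells too. With auxin it stood at 0.968 TPM at 20 minutes, 1.20 at 30, 2.77 at 40, 7.63 at 50, 9.94 at 60, 5.72 at 90 and 3.32 TPM at 120 minutes. The highest levels, 9.66 and 9.94 TPM at 60 minutes, hardly differed, and the largest differences came on the way down, 0.34 at 90 and 0.33 at 120 minutes, above 99.43% and 99.49% of genes. The mean after release was 3.93 TPM without and 4.51 TPM with auxin, a mean log2 difference of 0.17. In asynchronous cells the levels were 1.34 and 1.94 TPM, a difference of 0.33 that was above 99.67% of genes. With auxin, Jag1 kept 33.4% of its highest level at 120 minutes, against 25.3% without.

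Hes1 differed in the opposite direction to both ligands. With auxin it stood at 0.643 TPM at 20 minutes, 0.640 at 30, 2.64 at 40, 5.72 at 50, 5.34 at 60, 2.95 at 90 and 2.19 TPM at 120 minutes. It was lower with auxin at 6 of 7 times, the exception being 20 minutes. Its listed highest level came at 50 minutes with auxin, as for 7.26% of genes in that arm, and at 60 minutes without. In both arms the levels at 50 and 60 minutes (5.72 and 5.34 TPM with, 6.26 and 6.55 TPM without) were near each other and cannot be ranked. At 60 minutes the median difference of all genes was also below 0, at -0.06. The mean after release was 3.43 TPM without and 2.87 TPM with auxin, and the mean difference of -0.18 was lower than in all but 2.61% of genes. The largest difference was again at 90 minutes, 4.16 against 2.95 TPM (-0.38, lower than in all but 1.22% of genes). Mitotic cells held 0.463 TPM of Hes1 without auxin and 0.282 with it, and asynchronous cells 0.913 and 0.794 TPM.

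Rbpj did not show a steady difference after release, although the authors' deposited table calls it lower. With auxin it stood at 5.05 TPM at 20 minutes, 5.08 at 30, 5.18 at 40, 5.27 at 50, 7.18 at 60, 9.31 at 90 and 7.72 TPM at 120 minutes. It was lower with auxin at 5 of 7 times and higher at 30 and 40 minutes, by 0.21 and 0.24, so the mean difference was 0.0037. At those times the median of all genes was also above 0, at 0.05 and 0.08, and without them the Rbpj mean was -0.08, an alternative chosen after seeing the data. The lower Rbpj levels at 30 and 40 minutes, 4.27 and 4.23 TPM without auxin, had no counterpart with auxin. In asynchronous cells Rbpj was at 5.71 TPM without and 4.93 TPM with auxin, a difference of -0.18 that was lower than in all but 8.60% of genes.

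The receptor genes had small differences, of mixed sign for Notch1 and mostly higher with auxin for Notch2. Notch1 averaged 2.94 TPM without and 2.97 TPM with auxin after release, was higher at 4 of 7 times, and ranged from -0.12 at 60 minutes to 0.10 at 90 minutes. In asynchronous cells it stood at 1.03 and 1.02 TPM. Notch2 averaged 0.922 TPM without auxin and 1.08 times as much with it, was higher with auxin at 6 of 7 times, and had a mean difference of 0.06 at percentile 79.9 of all genes, with 0.839 and 0.855 TPM in asynchronous cells. With auxin, both receptors and Rbpj were again highest at 90 minutes, as were 30.3% of genes, and both ligands again at 60 minutes, as were 36.8%.

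**Figure D4:**
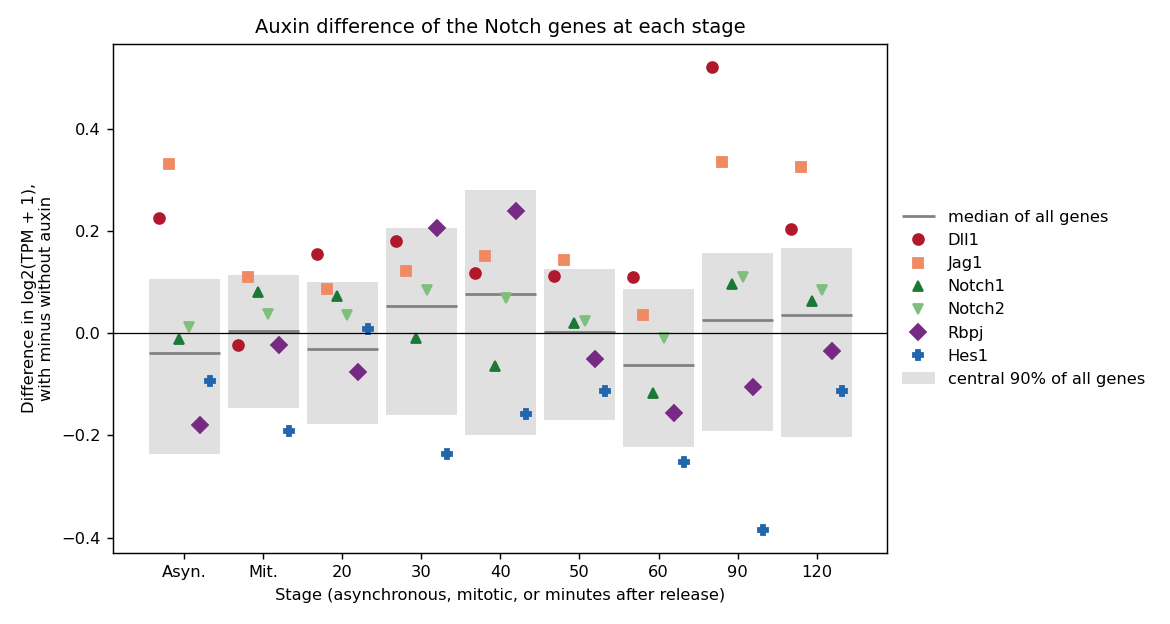
Difference in log2(TPM + 1), with minus without auxin, for each Notch gene (symbols) at each stage, over a grey band from the 5th to the 95th percentile of the 8999 genes of at least 1 TPM and a grey line at their median. Dll1 and Jag1 lie above the band in asynchronous cells and at 90 and 120 minutes, Dll1 also at 20 and 60 minutes and Jag1 also at 50 minutes. Hes1 lies below it in mitosis and at 30, 60 and 90 minutes, and Rbpj lies barely above it at 30 minutes.

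Peak counts can be set beside the calls. The ligands called higher in the authors' deposited table had 0 peaks (Dll1) and 3 peaks (Jag1) within 10 kb. Those called lower in that authors' deposited table, Hes1 and Rbpj, had 5 each, and the receptors, not called, had 6 (Notch1) and 0 (Notch2). Of all genes with a position, 70.5% had at least 1 peak within 10 kb, 26% at least 3 and 9.86% at least 5. The stretches searched also differ in length, as the genes span from 2.44 kb (Hes1) to 137 kb (Notch2). A count over 6 genes has no test here, and a link of peaks with calls was not tested.

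A wider list of 66 Notch pathway genes, with the 6 counted in it, had 59 in the table, 42 of them at 1 TPM or more. On average after release 24 of the 42 were higher with auxin and 18 lower, against 60.8% and 39.2% of all genes, and with each stage centred on its median the split was 20 and 22. Their median difference was 0.01, against 0.02 for all genes. At 7 of 7 times 3 were higher and 3 lower, against 3.88% and 5.33% of all genes. Of the 59, the authors' deposited table calls 8 higher and 6 lower, against 6.74% and 7.26% of all genes. Without the 6, 36 genes were at 1 TPM or more, with 19 higher and 17 lower on average. Of these 36, 1 was higher and 3 were lower at 7 of 7 times. Of the 53 in the table without the 6, 6 are called higher and 4 lower. The list, with the 6 genes in it, was chosen with earlier results of these data known.

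Among other ligands and receptors, Dll3, a ligand that acts inside the cell on Notch, is called higher in the authors' deposited table but averaged 0.991 TPM without and 0.995 TPM with auxin after release. Notch4, a receptor known from endothelium, is called lower in the authors' deposited table. Alone of the 4 receptors it was lower at 60 minutes (0.163 TPM) than in mitosis (0.481 TPM), and asynchronous cells held 0.772 TPM without and 0.345 with auxin. Jag2 and Notch3, which are not called in the authors' deposited table, were highest at 120 minutes, at 7.39 and 5.95 TPM. Unlike Dll1 and Jag1, the ligand Jag2 was lower with auxin at 5 of 7 times (3.23 TPM without and 3.15 TPM with, on average). Notch3 was lower at 4 of 7 (2.31 and 2.28 TPM).

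The proteases that cut Notch differed in direction. Adam10, which makes the first ligand-induced cut, is called higher in the authors' deposited table and averaged 1.26 TPM without and 1.39 TPM with auxin, higher at 7 of 7 times. Psenen, a subunit of the gamma-secretase that makes the final cut, is called lower in the authors' deposited table, at 0.972 and 0.855 TPM. Aph1a, another gamma-secretase subunit, had the lowest mean difference of the other pathway genes, -0.17 (4.43 and 3.87 TPM, lower at 7 of 7 times), yet is not called in the authors' deposited table. Over the course without auxin, each of the 6 proteases of at least 1 TPM was at least 2-fold over mitosis at 60 minutes on the log2(TPM + 1) scale, as were 50.8% of all genes.

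Among regulators, the corepressor Tle4 (9.61 and 10.3 TPM) and the ubiquitin ligase subunit Fbxw7, which marks the freed Notch fragment for destruction (3.07 and 3.37 TPM), had the highest mean differences of the other pathway genes, 0.11 and 0.12. Both are called higher in the authors' deposited table, as is Numb, an inhibitor of Notch (1.84 and 1.94 TPM). The corepressor Tle3 is called lower in the authors' deposited table and was lower at 7 of 7 times (5.03 and 4.60 TPM). Of the sugar transferases that modify Notch, Poglut1 is called lower (5.48 and 5.05 TPM) and Lfng higher (0.407 and 0.447 TPM) in the authors' deposited table. Among other target genes, 5 of 8 are in the table and none of the 5 is called. Only Hey1 reached 1 TPM in a group, and it averaged 0.374 TPM without and 0.449 TPM with auxin after release. Hey1 was higher with auxin at 5 of 7 times, whereas Hes1 was lower at 6 of 7.

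**Figure D5:**
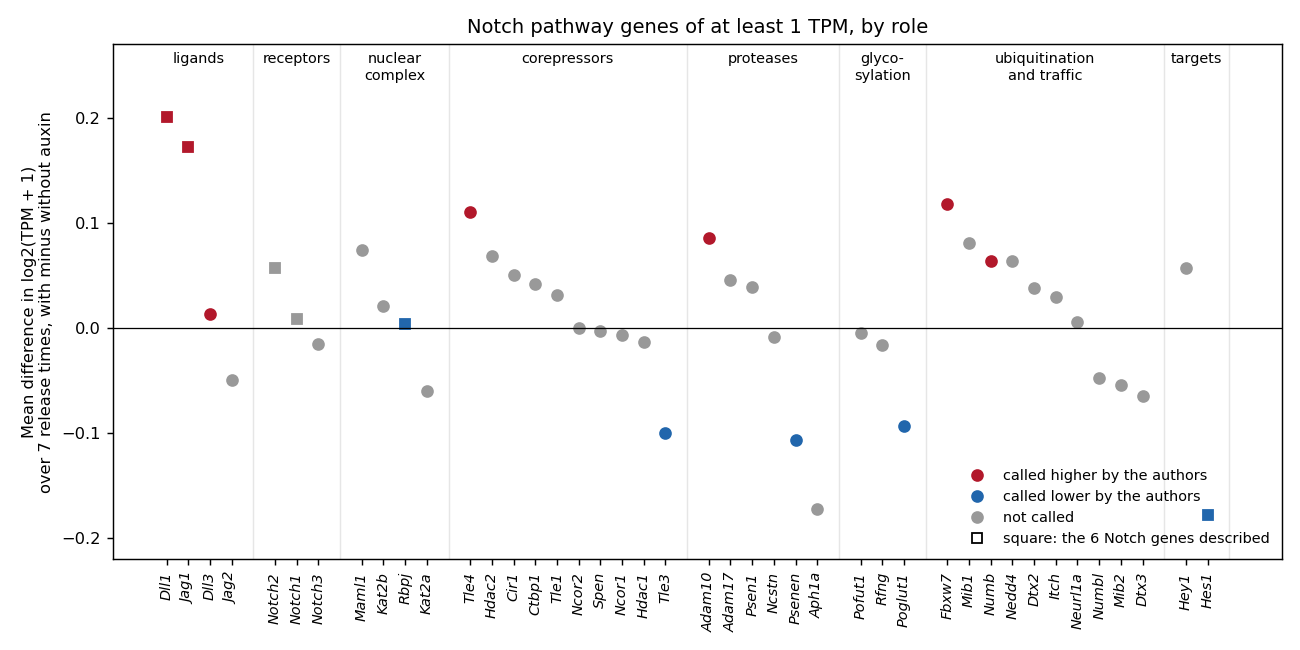
Mean difference in log2(TPM + 1) over the 7 release times, with minus without auxin, for the 42 Notch pathway genes of at least 1 TPM, grouped by role; squares are the 6 genes described in detail, and colours give the authors' call. Dll1 (0.20) and Jag1 (0.17) are the highest and Hes1 (-0.18) the lowest, and most other genes lie within 0.1 of 0.

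Many genes shared these courses. By Pearson's r of log2(TPM + 1) over the 18 group means, Dll1 was most like Gzmm, a granzyme (r = 0.993), Nxf1, an RNA export factor (0.992), and Rpl11, a ribosomal protein with close copies in the genome (0.992). Jag1 was most like Bcl2l11, a promoter of apoptosis, Cgn, a tight junction protein, and Acaa1a, a peroxisomal thiolase (0.992 to 0.993). Hes1 was most like Syngr3, Dbp, a clock transcription factor, and Uqcrh, a respiratory chain subunit (0.991 to 0.993). Notch1 was most like Skiv2l, an RNA helicase, Sgsm2 and Uhrf1, a factor of DNA methylation (0.996 to 0.997), and Notch2 most like Rnf115, Cnot6l, a deadenylase subunit, and Klhl18 (0.995 to 0.997). Rbpj was most like the ubiquitin ligases Ubr3 (0.985) and Rnf111 (0.983) and Ankrd11, a chromatin regulator (0.982). More than 0.95 was reached by 573 genes for Dll1, 1162 for Jag1, 1822 for Notch1, 1625 for Notch2, 711 for Hes1 and 193 for Rbpj, whose course was the least shared.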

How the data were processed

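RNA was measured in 54 libraries and Nr5a2 binding in 12. Titles gave the arm, since the treatment label reads control throughout. The authors deposited TPM as 1 mean per group: 3 times each of the 246530 values above 0 is a whole number of units of the 9th decimal, to a tolerance of 0.02. Per the submitters' processing notes, the tools were STAR, RSEM, DESeq2, Bowtie2 and MACS2 and the build mm10, with no version or role stated. Which part of a gene was quantified, and how the authors made their calls, is not stated there.

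From these means, log2(TPM + 1) differences were computed with pandas 2.3.3 and numpy 2.4.6 on Python 3.11.15, without a test, because no column holds a single library. Percentiles refer to genes of at least 1 TPM in at least 1 group. Peaks were assigned within a gene or 10 kb around it, for the 13869 genes whose symbol has a RefSeq position on GRCm38.p6, with peak coordinates as the authors' list gives them and read as counted from 1. The computation was tested on simulated data. The other pathway genes named are those with a call and the 3 highest and 3 lowest mean differences, and the genes of like course are the top 3 by r. Jag2, Notch3 and Hey1 fall outside this rule and were chosen after their values were seen. Alternatives were a pseudocount of 0.1, centring, quantile normalization, other times and other distances. The members and lists were chosen with earlier results of these data known.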

Additional observations from a re-analysis of the deposited data

How the results depend on the processing

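With 1 mean per group, neither sampling error nor a left-out library could be examined, and depth is unknown; low levels such as Dll1 in asynchronous cells carry most doubt. No paired analysis was possible because the columns are group means and carry no replicate number; the planned replicate fits were not run. A value is taken as kept within 1.5 times of the reported one. Over the 160 alternative values computed, 93 kept their size and sign, 50 moved and 17 turned sign, and the cause was not tested.

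Jag1 (0.17) and Hes1 (-0.18) kept their mean auxin differences after release under every alternative run, and Dll1 (0.20) kept its sign. With a pseudocount of 0.1 the auxin differences became 0.32 for Dll1, 0.11 for Notch2, 0.014 for Notch1 and 0.0083 for Rbpj. The near-zero means turned sign: centring each stage gave -0.0060 for Notch1 and -0.011 for Rbpj, and quantile normalization gave -0.00064 and -0.0029. The median over times gave 0.020 for Notch1 and -0.050 for Rbpj, and leaving out 30 and 40 minutes gave 0.027 and -0.084. Leaving out single times gave -0.0058 to 0.030 for Notch1 and -0.036 to 0.030 for Rbpj. The asynchronous Notch1 difference of -0.010 turned to 0.029 with centring and to 0.036 with quantile normalization. Other asynchronous differences kept their sign but moved: a pseudocount of 0.1 took Dll1 from 0.23 to 0.89, Jag1 from 0.33 to 0.51, Hes1 from -0.09 to -0.18, Notch1 to -0.018 and Notch2 from 0.012 to 0.024, centring took Hes1 to -0.05 and Notch2 to 0.05, and quantile normalization took Rbpj from -0.18 to -0.10 and Notch2 to 0.06. The counts of 24 pathway genes higher and 18 lower stayed within 1.5 times under every alternative run, but the majority did not always hold. Centring gave 20 higher and 22 lower, quantile normalization 21 and 21, and leaving out 60 minutes 29 and 13. Without the filter, 35 were higher and 24 lower, out of a larger set of 59.

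For the change from mitosis to 60 minutes, a pseudocount of 0.1 gave 4.47 for Dll1, 3.56 for Hes1 and 1.15 for Notch2. Centring on the median change gave 1.61 for Dll1, 1.73 for Jag1, 1.35 for Hes1 and 0.75 for Notch1, and turned Notch2 to -0.42 and Rbpj to -0.49. Quantile normalization gave 1.69 for Jag1, 1.38 for Hes1 and 0.70 for Notch1, and turned Notch2 to -0.13 and Rbpj to -0.78. At 90 minutes the change was 1.62 for Dll1, 1.74 for Jag1 and 0.81 for Rbpj, and at 120 minutes 1.17 for Dll1, 1.11 for Jag1 and 1.24 for Hes1. Peak counts depend on the distance: within the gene alone Notch1 had 3, Rbpj 3 and Hes1 1; within 50 kb Dll1 had 1, Notch2 1, Rbpj 10 and Hes1 11; within 100 kb Dll1 had 3, Notch1 10, Notch2 1, Rbpj 12 and Hes1 18.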
